A study of Homo sapiens with 36 samples.

Results

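The genes described here are 49 genes of the interferon response and of antigen presentation by MHC class I, followed across 12 groups of human prostate cancer cells. They were taken by symbol from a list that was chosen with earlier results of these data known. Shares of members beside those of all genes are therefore description only. All 49 were found among the 61805 identified rows of the gene count table. By role the list holds 5 genes for the receptor chains and their kinase, 5 transcription factors, 12 genes for proteins that sense or act on RNA, 11 other antiviral or interferon-induced genes, 4 genes of the ISG15 system, 5 genes of the PARP group and 7 genes of antigen presentation.

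Interferons of type I are secreted when a cell detects viral nucleic acid. Type I interferons bind the receptor chains IFNAR1 and IFNAR2, and interferon gamma binds IFNGR1 and IFNGR2; both receptors signal through the kinase JAK1. Behind the type I receptor, STAT2 and IRF9 form part of a complex that binds the interferon-stimulated response element, and IRF1, IRF7 and NLRC5 drive further groups of genes. The induced proteins include RNA sensors (IFIH1), proteins that bind foreign RNA (the IFIT family), enzymes that activate an RNA-degrading nuclease (the OAS family), the ubiquitin-like modifier ISG15 and the machinery that loads peptides on MHC class I. A low tonic level of many of these transcripts is known from cells that were never infected, cancer cell lines included.

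The study sequenced polyadenylated RNA from LNCaP, an androgen-sensitive line from a lymph node metastasis of prostate cancer, and from 42D, which is known to descend from LNCaP and to resist enzalutamide. The LNCaP lines were sgT33-5, sgT33-5_MC_C2 and sgT33-5_MC_F2 (shortened to C2 and F2) and NT3, and the 42D lines sgT33-5 and NT3. The labels expand none of these names. The series title names TRIM33, so sgT33-5 was taken to stand for a TRIM33 guide RNA and NT3 for a non-targeting control. Every line received 5 nM R1881, a synthetic androgen, or DMSO, the solvent, for 6 h, after 3 days in medium with 5% charcoal-stripped serum, which is low in steroid hormones. Each of the 12 groups holds 3 libraries. The labels name no interferon or virus among the treatments. C2 and F2 are 1 line each, and what belongs to the guide and what belongs to the line cannot be told apart. The labels do not say whether the 3 libraries of a group came from separate cultures, so p-values measure only the spread between these samples.

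Library totals were 13900744 to 19793268 counts. TRIM33 itself had 52.7 to 66.3 CPM (counts scaled to the size of the library) in sgT33-5, 38.7 to 46.2 CPM in C2 and 53 to 62.4 CPM in F2 with R1881, against 123 to 129 CPM in LNCaP NT3. With DMSO the ranges were 44.1 to 53.2 CPM in sgT33-5, 34.2 to 36.8 CPM in C2 and 41.6 to 43.3 CPM in F2, against 89.0 to 95.7 CPM in LNCaP NT3. In 42D, TRIM33 ranged over 72.7 to 74.6 CPM in sgT33-5 against 102 to 109 CPM in NT3 with R1881, and over 54.8 to 59.4 CPM in sgT33-5 against 79.4 to 89.0 CPM in NT3 with DMSO. The TRIM33 transcript was therefore lower in every guide line, without overlap, and present in all of them. The sum of 11 luminal prostate markers was 4129 CPM or more in every library. The sum of 10 leukocyte markers, which would show other interferon-responsive cells, was at most 1.27 CPM. Of these, PTPRC had 1 to 9 counts per library in LNCaP and 2 to 8 in 42D. SPI1 had 1 to 6 in LNCaP and 0 to 5 in 42D, and CD14 0 to 3 and 1 to 8. TYROBP was at 0 in all 36 libraries. The sum of 7 stromal and endothelial markers was 25.7 to 36.2 CPM in 42D and 33.5 to 53.1 CPM in LNCaP, carried mainly by COL1A1 and, in LNCaP, VWF. Within LNCaP it was 33.5 to 44.7 CPM in F2 and 48.0 to 52.3 CPM in NT3 with R1881, and 40.6 to 44.4 CPM in F2 and 46.5 to 53.1 CPM in NT3 with DMSO. Its part in the results was not tested. Mitochondrial genes took 2.14% to 6.66% of counts in LNCaP, where sgT33-5 with DMSO replicate 3 and sgT33-5 with R1881 replicate 1 stood below the others (4.16% or more), and 2.94% to 4.59% in 42D. In such bulk samples, fewer cells with a transcript and less of it per cell cannot be told apart.

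Promoter sequences of the members were searched for 2 short patterns. RefSeq windows of 300 bases (250 before and 50 after the annotated start, GRCh38.p14) were matched for 40 of the 49 members. The core of the interferon-stimulated response element, read as GAAA, any 2 bases and GAAA on either strand, was found in 22 of the 40 windows (55%) and in 1255 of all 35116 promoter windows (3.57%). The core of the gamma activated site, TTCNNNGAA, was found in 7 of the 40 (17.5%), against 2689 of all windows (7.66%), in PARP14, IRF1, OAS1, IRF9, IFI27, IFI35 and BST2. The 2 patterns can overlap in a window. A match is a string of letters and not evidence that a factor binds. HERC6, IFI35, IRF1, HLA-B and HLA-C, which the results also name, had a matched window without the core of the interferon-stimulated response element. IFIT2, NLRC5 and USP18 had no matched window. The stretches below were taken from 9 of the 22 members with that core. They run 5′ to 3′ on the strand of the gene, with every such core, or its complement of TTTC, any 2 bases and TTTC, in capitals.
IFIH1: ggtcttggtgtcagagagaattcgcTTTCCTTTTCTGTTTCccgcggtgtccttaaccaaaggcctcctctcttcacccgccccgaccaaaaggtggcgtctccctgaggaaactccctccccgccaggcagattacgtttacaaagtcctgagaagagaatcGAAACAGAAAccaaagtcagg
IFIT1: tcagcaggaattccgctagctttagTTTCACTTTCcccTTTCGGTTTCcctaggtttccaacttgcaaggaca
OAS3: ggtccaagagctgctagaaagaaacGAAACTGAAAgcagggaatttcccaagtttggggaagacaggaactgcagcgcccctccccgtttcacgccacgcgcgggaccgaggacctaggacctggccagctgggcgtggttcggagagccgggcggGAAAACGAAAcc
IFI6: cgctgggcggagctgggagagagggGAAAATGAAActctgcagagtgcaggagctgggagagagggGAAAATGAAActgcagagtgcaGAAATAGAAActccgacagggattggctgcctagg
SAMD9: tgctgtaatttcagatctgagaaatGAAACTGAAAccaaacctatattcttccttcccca
ISG15: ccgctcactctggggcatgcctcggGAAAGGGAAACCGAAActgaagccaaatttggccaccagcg
HERC5: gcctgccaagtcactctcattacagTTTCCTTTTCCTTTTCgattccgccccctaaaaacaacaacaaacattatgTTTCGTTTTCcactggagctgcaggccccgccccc
PARP14: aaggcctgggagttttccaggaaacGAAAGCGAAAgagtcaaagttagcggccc
B2M: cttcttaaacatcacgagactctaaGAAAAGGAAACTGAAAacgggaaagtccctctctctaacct
The IFIH1 stretch lies on the minus strand at chr2:162318685-162318868, that of IFIT1 on the plus strand at chr10:89392482-89392554 and that of OAS3 on the plus strand at chr12:112938306-112938473. IFI6 (chr1:27672251-27672373) and SAMD9 (chr7:93118081-93118140) are on minus strands. ISG15 (chr1:1013359-1013424), HERC5 (chr4:88456969-88457079), PARP14 (chr3:122680785-122680838) and B2M (chr15:44711348-44711413) are on plus strands. In ISG15 and B2M the capitals form 1 run of overlapping matches, in HERC5 and IFIT1 2 separate runs read on the opposite strand, and in IFI6 3 separate runs.

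No interferon transcript was seen. All 21 interferon ligand genes looked up in the table (types I, II and III) had 0 counts in all 36 libraries. For a single library, a count of 0 allows up to 3 counts, which is counting error only.

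The receptor chains and JAK1 were all expressed in both cell lines. To compare levels between genes, CPM were divided by the exon length of each gene in kb. In NT3 cells with DMSO, IFNGR2 stood at 13.5 ± 0.177 CPM per kb in 42D and 17.3 ± 0.903 in LNCaP (SD, n = 3 each). IFNAR1 had 16.4 ± 0.335 CPM per kb in 42D and 16.3 ± 0.744 in LNCaP. IFNGR1 had 8.97 ± 0.743 CPM per kb in 42D and 8.44 ± 0.673 in LNCaP. The second type I chain, IFNAR2, lay lower, with 2.12 ± 0.383 CPM per kb in 42D and 1.97 ± 0.252 in LNCaP, and JAK1 lower still, with 1.19 ± 0.0921 CPM per kb in 42D and 1.13 ± 0.172 in LNCaP. In LNCaP the order was IFNGR2, IFNAR1, IFNGR1, IFNAR2, JAK1, of which IFNGR2 and IFNAR1 did not differ beyond their spread. In 42D IFNAR1 stood above IFNGR2, and the other 3 kept their order. For IFNAR2, 2038 of 4614 exon bases are shared with another annotated gene on the same strand, so its reads are uncertain.

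Group averages of these 5 genes were compared over all 12 groups. IFNAR1 averaged 95.6 to 108 CPM over the groups, IFNAR2 7.20 to 9.76 CPM, IFNGR1 24.9 to 41.0 CPM and IFNGR2 31.9 to 54.0 CPM. JAK1 averaged 6.57 to 10.9 CPM. With R1881 JAK1 averaged 10.9 ± 2.12 CPM in LNCaP sgT33-5, 7.69 ± 0.503 in C2, 7.79 ± 0.130 in F2 and 8.97 ± 0.960 in LNCaP NT3 (SD, n = 3 each). With DMSO JAK1 averaged 8.12 ± 0.210 CPM in LNCaP sgT33-5, 6.57 ± 0.450 in C2, 6.72 ± 0.674 in F2 and 7.11 ± 1.09 in LNCaP NT3. In 42D, JAK1 averaged 8.54 ± 0.835 CPM in sgT33-5 and 10.3 ± 0.479 in NT3 with R1881, and 8.79 ± 0.498 CPM in sgT33-5 and 7.54 ± 0.582 in NT3 with DMSO. The highest average of JAK1, in LNCaP sgT33-5 with R1881, was also the one with the widest spread.

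Among all members, per length, the RNA-editing enzyme ADAR ranked first in LNCaP NT3 with DMSO, with 54.6 ± 2.15 CPM per kb in 42D and 55.6 ± 0.634 in LNCaP. HLA-C, an MHC class I heavy chain, came second, with 35.2 ± 1.43 CPM per kb in 42D and 29.8 ± 0.812 in LNCaP. B2M, the invariant light chain of MHC class I, had 20.9 ± 1.12 CPM per kb in 42D and 15.1 ± 1.15 in LNCaP. At the other end, 6 members had almost no reads. IFI44L had 0 to 4 counts per library, MX2 0 to 4, OAS2 0 to 5, SAMD9L 0 to 4 and PSMB8, an immunoproteasome subunit, 1 to 11. XAF1 had a single count in 1 of the 36 libraries. These 6 and PSMB9, the second immunoproteasome subunit, did not pass the count filter in LNCaP, where 42 members were tested. In 42D 36 members were tested, and IFIT3, IFI27, IFI35, IFI44L, MX2, OAS1, OAS2, OASL, SAMD9, SAMD9L, XAF1, PSMB8 and BST2 were not. In the fit of both cell lines 43 were tested.

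**Figure D1:**
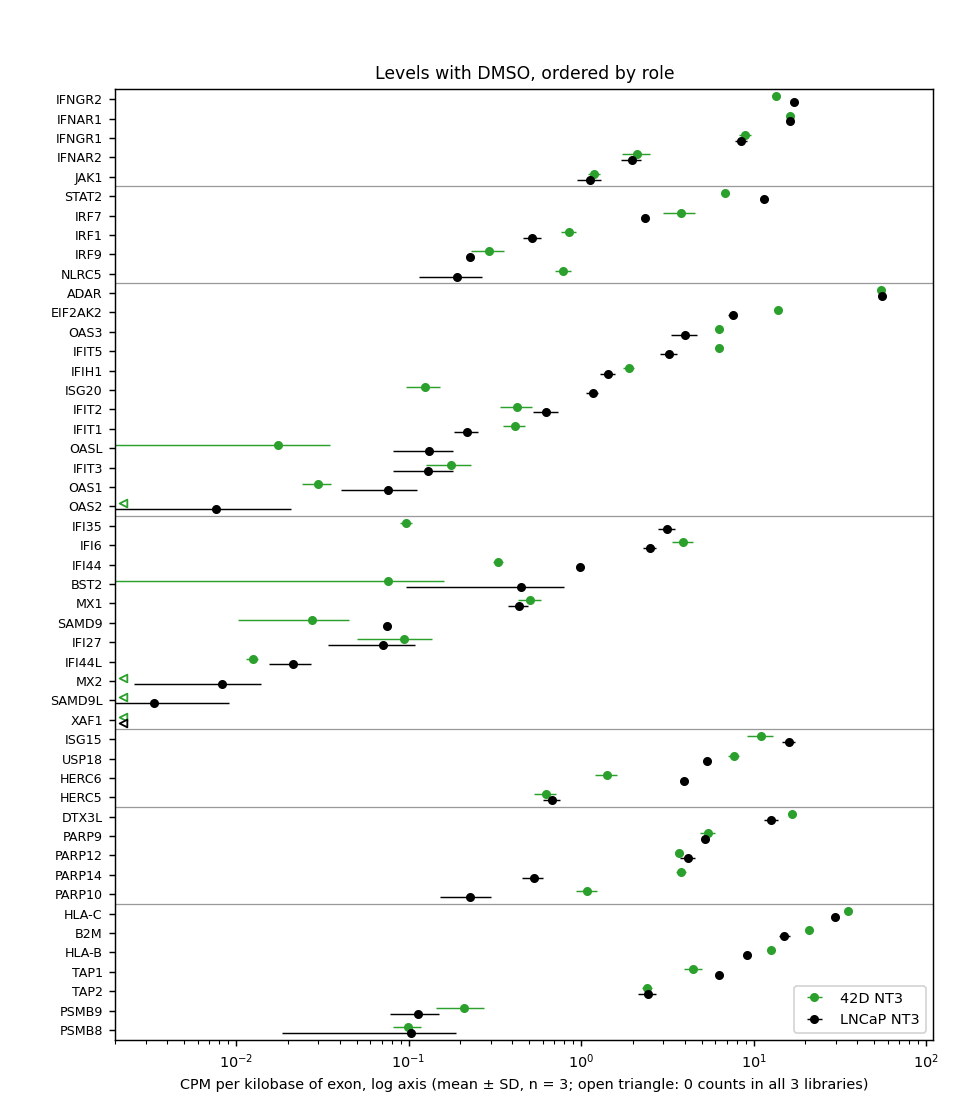
Level of each member in NT3 cells with DMSO, as CPM per kb of exon on a log axis, 42D above LNCaP for each gene, with means ± SD of 3 libraries and open triangles for genes at 0 counts in all 3. ADAR and HLA-C lie farthest to the right at 55.6 and 29.8 CPM per kb in LNCaP, JAK1 lies at 1.13, and XAF1 is a triangle in both lines.

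**Figure D2:**
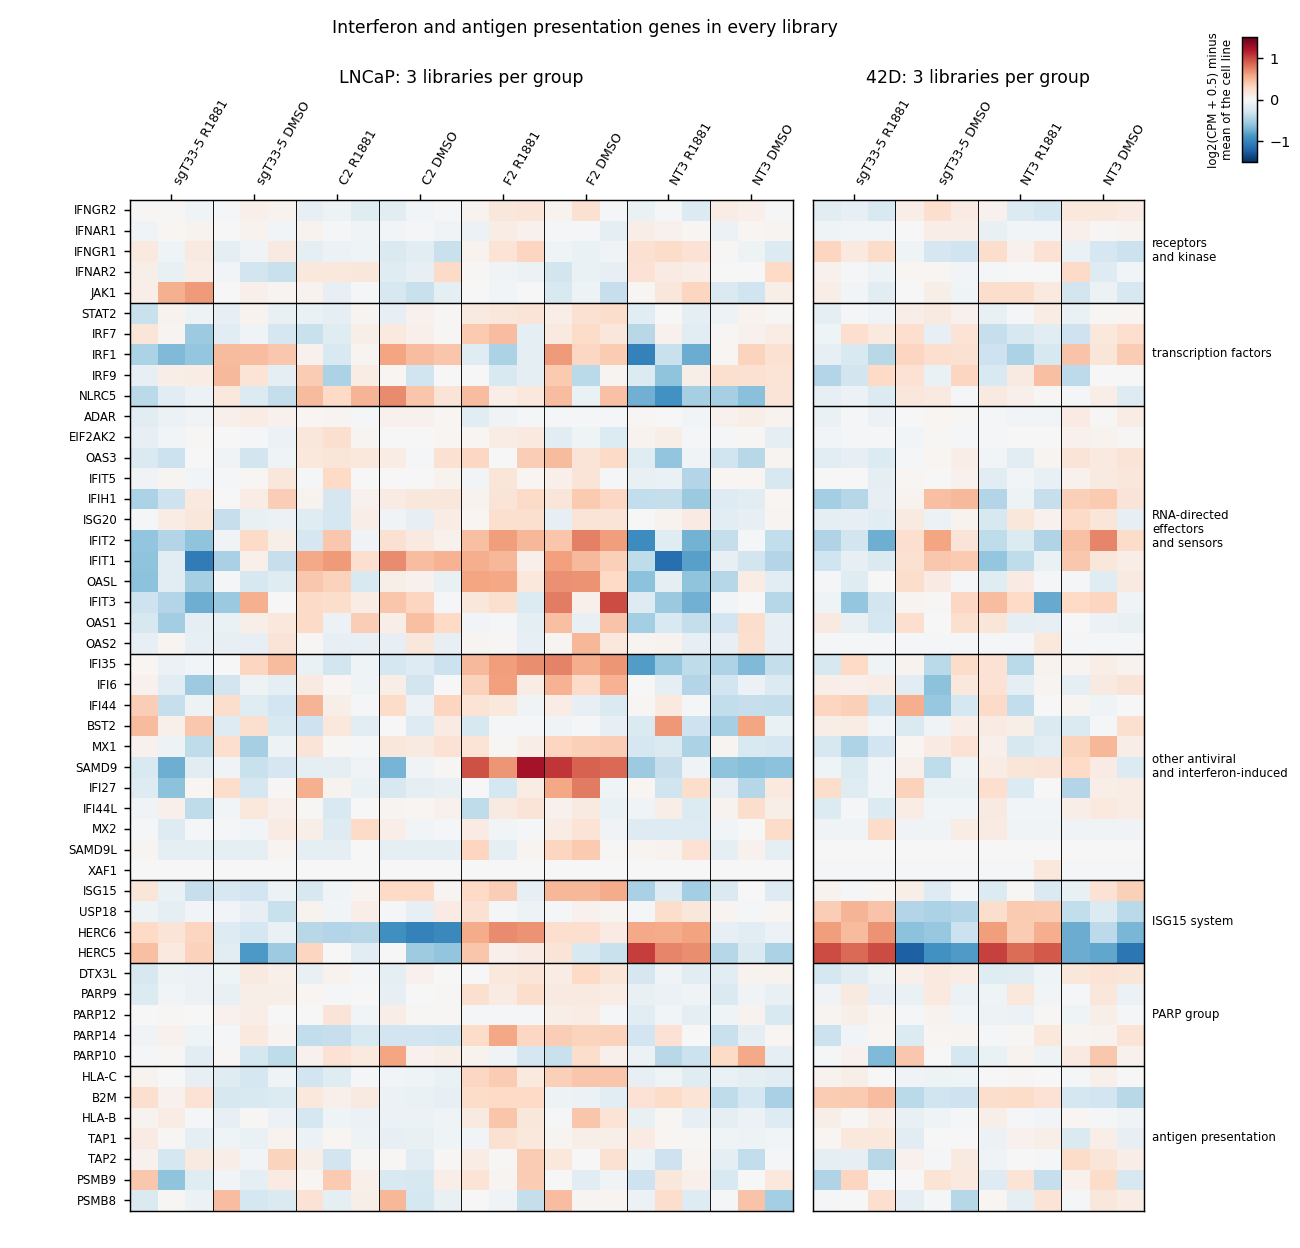
Members by library, as log2(CPM + 0.5) minus the mean of the cell line, with colours that end at 1.5 below and above. Rows are ordered by role and columns by line, with the R1881 libraries left of the DMSO libraries. IFI35 and SAMD9 stand above the LNCaP mean in F2. Between C2 and F2, 0 of 11 RNA-directed members were called with DMSO and 1 with R1881, against 18.1% and 21% of all genes. With the replicate block, which pairs the DMSO libraries, IFIT2, OAS3 and OASL were called lower in C2 and EIF2AK2 higher.

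The comparison of each guide line with NT3 asks whether members differ where TRIM33 RNA is lower. The members stood higher most often in F2. Since the list was chosen with earlier results of these data known, the shares below are description only. With DMSO 18 of 42 members tested (42.9%) were higher and 0 were lower than in NT3, against 8.94% of all 15519 genes higher and 7.73% lower. With R1881 17 members (40.5%) were higher and 1 was lower, against 6.19% and 7.26% of all genes. The median log2 fold change of the 42 members was 0.29 with DMSO and 0.28 with R1881, against -0.01 over all genes in both comparisons. Calls are those of edgeR's quasi-likelihood test with a Benjamini-Hochberg adjusted p under 0.05 over all genes tested. DESeq2 called 16 members with DMSO and 18 with R1881. With R1881, 11 members were called when F2 with R1881 replicate 2 was left out. The summed leukocyte markers were 0.431 to 0.846 CPM in F2 and 0.518 to 0.790 CPM in NT3 with DMSO, and 0.492 to 0.737 CPM in F2 and 0.319 to 0.735 CPM in NT3 with R1881; their part in the result was not tested.

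By role, none of the 5 receptor genes and none of the 5 transcription factors was called in F2 with DMSO, against 6 of 11 RNA-directed genes, 4 of 7 other antiviral genes, 2 of 4 ISG15 genes, 3 of 5 PARP genes and 3 of 5 antigen presentation genes, all higher. With the replicate number as a block, which pairs the libraries here, STAT2 (log2 fold change 0.20, adjusted p = 0.00724, edgeR), NLRC5 (0.65, 0.0198) and TAP2 (0.32, 0.0017) were called higher as well. With R1881 the receptor chain IFNGR2 (log2 fold change 0.25) and the transcription factors STAT2 (0.27) and NLRC5 (1.14) were also called higher. The share of all genes called higher in F2 under both treatments is not given here. The 2 comparisons use different libraries of the same lines in the same fit, so they are not independent evidence. They share 14 members called higher, of 18 with DMSO and 17 with R1881: IFIT1, IFIT2, IFIH1, OAS3, OASL, IFI6, IFI35, SAMD9, ISG15, PARP9, PARP14, DTX3L, HLA-B and HLA-C.

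Of the IFIT genes, which encode RNA-binding proteins, IFIT1 and IFIT2 were higher in F2 under both treatments, and IFIT5 was called under neither. IFIT2 had 4.48, 5.14 and 4.64 CPM in F2 and 1.40, 2.73 and 1.74 CPM in NT3 with R1881. With DMSO it had 4.35, 5.64 and 5.12 CPM in F2 and 2.34, 3.09 and 2.33 CPM in NT3. All F2 libraries lay above all NT3 libraries of their treatment, with log2 fold changes of 1.28 (SE 0.21, adjusted p = 8.46e-05, edgeR) with R1881 and 0.98 (SE 0.19, adjusted p = 0.000839) with DMSO. IFIT1 had 2.15, 2.08 and 1.42 CPM in F2 and 0.893, 0.332 and 0.534 CPM in NT3 with R1881, a log2 fold change of 1.66 (SE 0.33, adjusted p = 0.00082, edgeR). With DMSO IFIT1 had 2.30, 2.06 and 1.83 CPM in F2 and 1.17, 1.01 and 0.842 CPM in NT3, again without overlap (1.02, SE 0.28, adjusted p = 0.0134, edgeR). Its counts were few, 5 to 43 per LNCaP library. Of the oligoadenylate synthetase family, OAS3 rose by 0.50 with R1881 and 0.54 with DMSO on the log2 scale. The related OASL, which has lost the enzyme activity, rose by 1.73 and 1.22, with at most 22 counts in any LNCaP library. The RNA sensor IFIH1 rose by 0.65 with R1881 and 0.44 with DMSO. IFIT3 was called with DMSO (log2 fold change 1.48), with at most 25 counts in any LNCaP library.

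Among the other antiviral genes, SAMD9, which encodes a restriction factor of poxviruses, had the largest fold change of the members in F2 with DMSO. It had 2.78, 2.39 and 2.32 CPM in F2 and 0.526, 0.503 and 0.518 CPM in NT3 with DMSO, a log2 fold change of 2.25 (SE 0.29, adjusted p = 4.13e-06, edgeR). With R1881 SAMD9 had 2.52, 1.97 and 3.21 CPM in F2 and 0.574, 0.731 and 1.0 CPM in NT3 (1.72, SE 0.27, adjusted p = 5.61e-05, edgeR). The groups did not overlap in either treatment. In NT3, SAMD9 rested on 24 counts over 3 libraries with DMSO and 35 with R1881. IFI35, an interferon-induced leucine zipper protein, had 12.6, 14.1 and 14.8 CPM in F2 and 4.78, 5.85 and 6.75 CPM in NT3 with R1881. With DMSO it had 15.3, 13.2 and 14.4 CPM in F2 and 6.31, 5.46 and 6.86 CPM in NT3. The log2 fold changes of IFI35 were 1.25 (SE 0.13, adjusted p = 1.05e-07, edgeR) with R1881 and 1.20 (SE 0.13, adjusted p = 1.48e-07) with DMSO. IFI6, a small membrane protein induced by interferon, rose by 0.66 and 0.76, and the antiviral GTPase MX1 by 0.54 with DMSO.

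Of the ISG15 system, ISG15 had 20.6, 21.6 and 15.1 CPM in F2 and 11.7, 14.4 and 11.5 CPM in NT3 with R1881, and 23.6, 23.5 and 24.5 CPM in F2 and 14.2, 16.6 and 14.4 CPM in NT3 with DMSO. F2 lay above NT3 in both treatments, with log2 fold changes of 0.61 (SE 0.13, adjusted p = 0.00246, edgeR) and 0.67 (SE 0.13, adjusted p = 0.00058). The ISG15 ligase HERC5 was lower in F2 with R1881 (log2 fold change -0.67, SE 0.19, adjusted p = 0.0165, edgeR), and its relative HERC6 was higher with DMSO (0.34, SE 0.07, adjusted p = 0.00059). In the PARP group, PARP14 (0.44 with R1881 and 0.53 with DMSO), PARP9 (0.29 and 0.26) and DTX3L, the ubiquitin ligase partner of PARP9 (0.27 and 0.23), were higher. PARP9 and DTX3L overlap on opposite strands, and whether counting used the strand is not given in the sources used here.

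In antigen presentation, HLA-C had 102, 107 and 90.8 CPM in F2 and 74.9, 78.0 and 72.3 CPM in NT3 with R1881, and 105, 109 and 110 CPM in F2 and 76.6, 74.8 and 72.5 CPM in NT3 with DMSO. The F2 libraries were all above NT3, with log2 fold changes of 0.41 (SE 0.07, adjusted p = 9.65e-05, edgeR) and 0.54 (SE 0.07, adjusted p = 2.09e-06). HLA-B rose by 0.32 and 0.36. HLA-B and HLA-C are close paralogs, and reads could be split between them. B2M was called higher with DMSO alone (0.27, SE 0.05, adjusted p = 0.000615, edgeR). The peptide transporter genes TAP1 and TAP2 were not called in F2 under either treatment without the block. Of the 18 calls with DMSO, 9 held in every alternative setting (IFIT2, OAS3, IFI6, IFI35, SAMD9, ISG15, HERC6, HLA-C and B2M), and the other 9 ended without at least 1 library, 6 of them without NT3 with DMSO replicate 1. Of the 18 calls with R1881, 10 held (IFIT1, IFIT2, IFIH1, OASL, IFI35, SAMD9, ISG15, PARP9, HLA-C and NLRC5), and 7 of the other 8 ended without F2 with R1881 replicate 2.

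**Figure D3:**
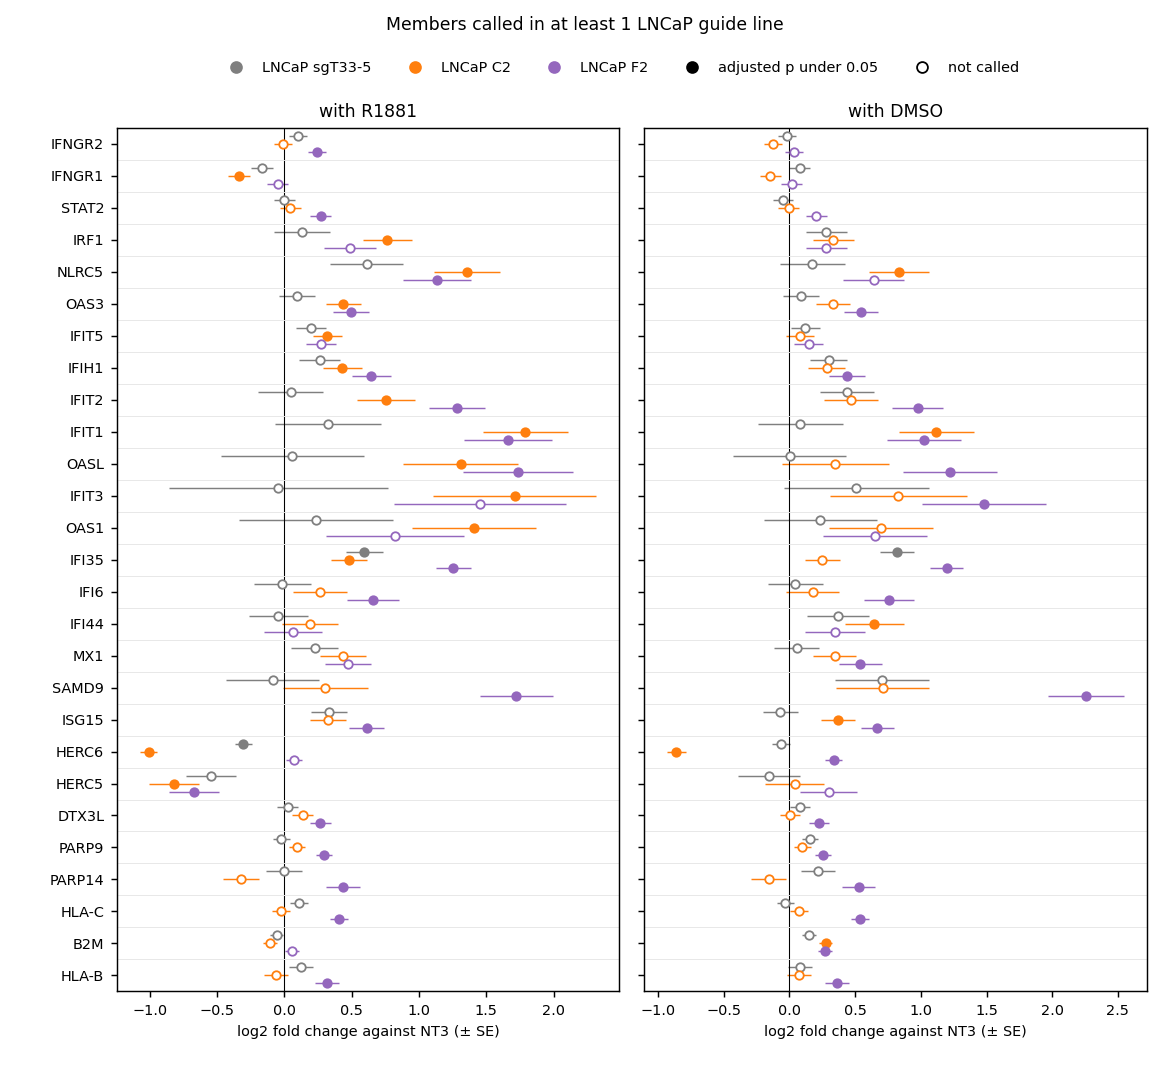
Log2 fold change ± SE against NT3 of the members called in at least 1 LNCaP guide line, for sgT33-5, C2 and F2, with R1881 in the left panel and DMSO in the right; filled points have an adjusted p under 0.05 in edgeR. SAMD9 in F2 with DMSO lies farthest to the right at 2.25, and HERC6 in C2 with R1881 farthest to the left among called members at -1.01.

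C2 differed from NT3 in fewer members. With R1881 11 of 42 (26.2%) were higher and 3 lower, against 9.67% and 13.3% of all genes. With DMSO 5 (11.9%) were higher and 1 lower, against 8.53% and 9.63%, which is near the background and not a result about the members. All 8 RNA-directed members that were called in C2 with R1881 were higher: IFIT1, IFIT2, IFIT3, IFIT5, IFIH1, OAS1, OAS3 and OASL, of 11 tested. Of these 8 calls IFIT1 alone held in every alternative setting, and leaving out C2 replicate 2 of that treatment ended those of IFIT2, IFIT3, IFIT5, OAS3 and OASL (adjusted p up to 0.225). With R1881, 9 members were called when NT3 replicate 3 of that treatment was left out, and also 9 when C2 replicate 2 was. With DMSO, 3 were called when NT3 replicate 1, NT3 replicate 2 or C2 replicate 1 of that treatment was left out. NT3 libraries are shared between the comparisons of sgT33-5, C2 and F2, so their values are given side by side and not as independent evidence.

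IFIT1 was the RNA-directed member that was called in C2 under both treatments. It had 2.20, 2.33 and 1.66 CPM in C2 with R1881 (log2 fold change 1.79, SE 0.32, adjusted p = 0.000133, edgeR) and 2.47, 2.01 and 2.11 CPM in C2 with DMSO (1.12, SE 0.28, adjusted p = 0.00639), against the IFIT1 values of NT3 given above, which did not overlap. NLRC5, the transactivator of MHC class I genes, had 4.29, 3.74 and 4.39 CPM in C2 and 1.59, 1.33 and 1.94 CPM in NT3 with R1881 (1.36, SE 0.24, adjusted p = 0.000165, edgeR). With DMSO NLRC5 had 5.11, 4.07 and 3.43 CPM in C2 and 1.93, 1.72 and 3.43 CPM in NT3, where the groups overlapped at the lowest C2 and the highest NT3 library (0.84, adjusted p = 0.0114, a call that ended in an alternative setting). IRF1, a transcription factor downstream of interferon gamma, was higher in C2 with R1881 (0.77, SE 0.19, adjusted p = 0.00334, edgeR). HLA-B and HLA-C were not called in C2 in either treatment, and B2M was higher with DMSO (0.28, SE 0.05, adjusted p = 0.000465, edgeR).

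HERC6 was lower in C2 under both treatments and higher in F2 with DMSO. It had 18.7, 18.4 and 18.8 CPM in C2, 37.1, 41.5 and 40.3 CPM in F2 and 37.6, 37.2 and 38.4 CPM in NT3 with R1881. With DMSO it had 13.1, 12.2 and 12.6 CPM in C2, 29.9, 30.0 and 27.4 CPM in F2 and 23.0, 22.4 and 23.7 CPM in NT3. The C2 libraries lay below all F2 and LNCaP NT3 libraries of their treatment, with log2 fold changes against NT3 of -1.01 (SE 0.06, adjusted p = 8.19e-12, edgeR) with R1881 and -0.86 (SE 0.07, adjusted p = 1.13e-09) with DMSO. HERC5 (-0.82, SE 0.19, adjusted p = 0.00202, edgeR) and IFNGR1 (-0.34, SE 0.08, adjusted p = 0.00263) were lower in C2 with R1881.

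In sgT33-5 few members were called. With DMSO 1 of 42 was higher and 0 lower, against 0.509% of all genes higher and 0.889% lower (1.4% called). With R1881 1 was higher and 1 lower, against 0.979% and 2.06% of all genes (3.04% called). The replicate block, which pairs these libraries, added HERC5 (log2 fold change -0.54, adjusted p = 0.00621, edgeR). The count was 1 without NT3 with R1881 replicate 1, without NT3 with R1881 replicate 2 and without sgT33-5 with R1881 replicate 1. At an unadjusted p under 0.05 the count was 8 with DMSO and 9 with R1881. The member called higher in both was IFI35. It had 9.13, 8.36 and 8.65 CPM in sgT33-5 and 4.78, 5.85 and 6.75 CPM in NT3 with R1881 (log2 fold change 0.59, SE 0.14, adjusted p = 0.0143, edgeR). With DMSO it had 8.84, 11.3 and 12.6 CPM in sgT33-5 and 6.31, 5.46 and 6.86 CPM in NT3 (0.82, SE 0.13, adjusted p = 0.000555, edgeR). The groups did not overlap, and the call with DMSO held in every setting, while that with R1881 ended without NT3 with R1881 replicate 1 (adjusted p = 0.118). HERC6 was lower in sgT33-5 with R1881, at 31.0, 28.8 and 31.5 CPM against the HERC6 values of NT3 above (-0.31, SE 0.06, adjusted p = 0.00564, edgeR), and missed the threshold in a fit of these libraries alone (0.0664). IFI35 in C2 with R1881 was also called higher (0.48, adjusted p = 0.0102, edgeR, and 0.0759 without NT3 with R1881 replicate 1), so with R1881 it was called in all 3 LNCaP guide lines, which share the NT3 libraries.

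**Figure D4:**
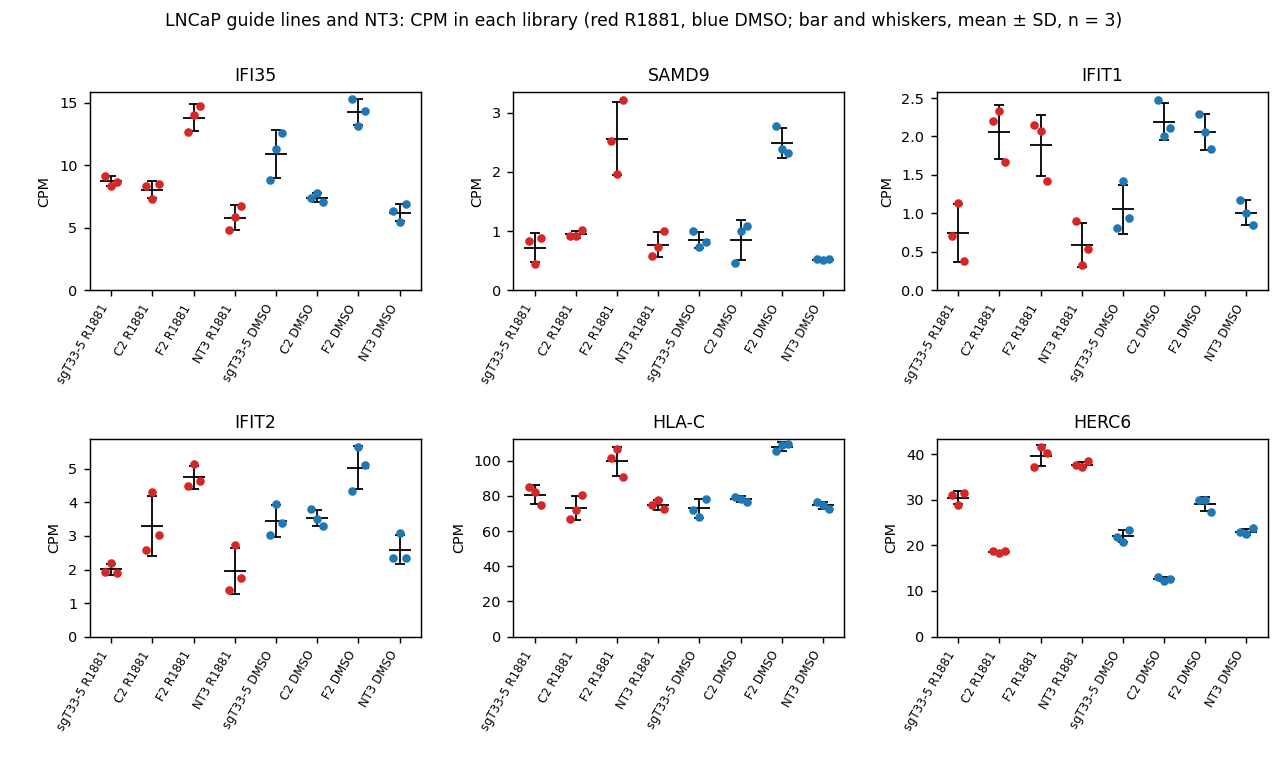
CPM of IFI35, SAMD9, IFIT1, IFIT2, HLA-C and HERC6 in the 8 LNCaP groups, each point a library, guide lines left of NT3 within each treatment. IFI35 lies at 12.6 to 15.3 CPM in F2 and 4.78 to 6.86 CPM in NT3, and HERC6 at 12.2 to 18.8 CPM in C2 and 22.4 to 38.4 CPM in NT3.

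C2 and F2, compared directly, differed in 12 members with R1881 and 8 with DMSO, all lower in C2. That is 28.6% and 19% of the 42 tested, against 11.7% and 9.93% of all genes lower; 9.26% and 8.18% of all genes were higher in C2. With the replicate number as a block, which pairs the libraries of this comparison, 17 members were called with DMSO in place of 8. Of those gained, EIF2AK2 was higher in C2 (log2 fold change 0.15, adjusted p = 0.023, edgeR) and the others were lower. The share of all genes called with the block is not given here. HERC6 (log2 fold change -1.08 with R1881 and -1.20 with DMSO), SAMD9 (-1.42 and -1.54), IFI35 (-0.77 and -0.95), PARP14 (-0.76 and -0.69), HLA-C (-0.44 and -0.46) and HLA-B (-0.38 and -0.29) were lower in C2 in both treatments. PARP14, for example, had 4.66, 4.76 and 5.20 CPM in C2 and 7.61, 9.46 and 7.79 CPM in F2 with R1881, and 5.00, 4.97 and 4.93 CPM in C2 and 8.10, 7.91 and 8.02 CPM in F2 with DMSO. The PARP14 groups did not overlap. IFIT1 and NLRC5, which were called higher than NT3 in both lines with R1881, were not called between C2 and F2.

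In 42D no member was called between sgT33-5 and NT3, of 36 tested, with R1881 (0.396% of all genes higher and 0.117% lower, 0.513% in all) or with DMSO (0.896% higher and 0.234% lower, 1.13% in all). At an unadjusted p under 0.05 there were 5 members with R1881 and 2 with DMSO, and DESeq2 called 0 in both. With the replicate number as a block, 1 member was called with R1881, B2M (log2 fold change 0.15, adjusted p = 0.0235, edgeR). The difference between the guide effect in 42D and that in LNCaP sgT33-5 was tested as well. No member of 43 was called, with 1.32% of all genes called with R1881 and 0.797% with DMSO. At an unadjusted p under 0.05 there were 7 and 3 members, and DESeq2 called 1 and 0. In simulated data of the 42D comparison with DMSO, 63.3% of genes changed by 0.5 on the log2 scale and 90.0% of those changed by 1 were recovered. The changed genes were drawn at random from all genes tested, so recovery at the counts of the members was not measured. IFI35, the member called in LNCaP sgT33-5, had 0 to 5 counts per library in 42D and could not be tested there.

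R1881 changed a small set of the members. In LNCaP sgT33-5 4 members were higher (6.78% of all genes) and 3 lower (5.7%), 16.7% of 42 against 12.5% of all genes. In C2 2 were higher (3.6% of all genes) and 1 lower (2.06%), 7.14% against 5.66%. In F2 4 were higher (6.4% of all genes) and 1 lower (3.98%), 11.9% against 10.4%. In LNCaP NT3 4 were higher (8% of all genes) and 1 lower (5.15%), 11.9% against 13.2%. In F2 3 members were called without F2 with DMSO replicate 3. These shares are near the background and are not a result about the members. In 42D more were called: 5 higher and 9 lower in sgT33-5 (38.9% of 36, against 27.3% of all genes), and 6 higher and 9 lower in NT3 (41.7%, against 25.3%). The 9 lower members are 25% of those tested in each line, against 13.2% of all genes lower in sgT33-5 and 11.4% in NT3. The shares of all genes higher were 14.1% in sgT33-5 and 13.9% in NT3.

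The transcription factor IRF1 was lower with R1881 in all 6 lines. In 42D it had 4.70, 4.34 and 3.76 CPM with R1881 and 6.61, 6.27 and 6.16 CPM with DMSO in sgT33-5, and 4.07, 3.57 and 4.29 CPM with R1881 and 7.11, 5.91 and 6.86 CPM with DMSO in NT3. In LNCaP sgT33-5 it had 2.36, 2.01 and 2.16 CPM with R1881 and 5.03, 4.98 and 4.75 CPM with DMSO, and in LNCaP NT3 1.47, 2.66 and 1.87 CPM with R1881 and 3.57, 4.52 and 4.14 CPM with DMSO. R1881 and DMSO libraries did not overlap in any of these lines. The log2 fold changes of IRF1 were -1.18 (SE 0.17) in LNCaP sgT33-5, -0.60 (0.16) in C2, -0.82 (0.16) in F2 and -1.03 (0.18) in LNCaP NT3, and -0.57 (0.13) in 42D sgT33-5 and -0.72 (0.14) in 42D NT3, with an adjusted p of at most 0.0172 (edgeR). The call in C2 ended without C2 with DMSO replicate 1, C2 with DMSO replicate 2 or C2 with R1881 replicate 2 (adjusted p up to 0.111). IRF1 overlaps other annotated genes on the opposite strand.

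B2M was higher with R1881 in all 6 lines. It had 208, 209 and 219 CPM with R1881 and 121, 129 and 129 CPM with DMSO in 42D sgT33-5, and 191, 193 and 186 CPM with R1881 and 132, 130 and 120 CPM with DMSO in 42D NT3. In LNCaP NT3 it had 139, 144 and 137 CPM with R1881 and 91.3, 99.2 and 85.3 CPM with DMSO, and in C2 133, 125 and 131 CPM with R1881 and 112, 111 and 110 CPM with DMSO. No line had overlapping B2M values. The log2 fold changes were 0.39 (SE 0.05) in LNCaP sgT33-5, 0.22 (0.05) in C2, 0.39 (0.05) in F2 and 0.60 (0.05) in LNCaP NT3, and 0.75 (0.04) in 42D sgT33-5 and 0.60 (0.04) in 42D NT3, with an adjusted p of at most 0.0069 (edgeR). The response in C2 was smaller than in NT3 by the interaction term (difference -0.38, SE 0.07, adjusted p = 0.00664, edgeR), against 0.689% of all genes called in that test. The heavy chain genes HLA-B and HLA-C, with which B2M pairs, were not called with R1881 in any line. Neither was TAP1. In 42D sgT33-5 the replicate block, which pairs these libraries, brought 21 calls in place of 14. HLA-B (0.14, adjusted p = 0.0435, edgeR), HLA-C (0.12, 0.0236) and TAP1 (0.17, 0.0455) were gained as higher, and ADAR, IFNAR1, NLRC5 and STAT2 as lower. The share of all genes called with the block is not given here. TAP2 was called in 42D sgT33-5 alone (-0.28, adjusted p = 0.0311), a call that ended in an alternative setting.

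Within the ISG15 system, HERC6 was higher with R1881 in all 6 lines. It had 19.9, 17.8 and 20.5 CPM with R1881 and 8.08, 8.43 and 10.0 CPM with DMSO in 42D sgT33-5, and 19.9, 16.7 and 18.8 CPM with R1881 and 7.35, 9.59 and 7.67 CPM with DMSO in 42D NT3. Together with the LNCaP values above, R1881 and DMSO libraries of HERC6 overlapped in no line. Its log2 fold changes were 0.46 (SE 0.07) in LNCaP sgT33-5, 0.55 (0.07) in C2, 0.44 (0.06) in F2 and 0.70 (0.06) in LNCaP NT3, and 1.13 (0.11) in 42D sgT33-5 and 1.20 (0.11) in 42D NT3. HERC5 had 12, 10.9 and 11.9 CPM with R1881 and 2.20, 2.87 and 3.02 CPM with DMSO in 42D sgT33-5, and 12.4, 10.8 and 11.5 CPM with R1881 and 3.29, 3.20 and 2.50 CPM with DMSO in 42D NT3. In LNCaP NT3 HERC5 had 9.44, 7.51 and 7.35 CPM with R1881 and 3.10, 3.66 and 2.98 CPM with DMSO. Its log2 fold changes were 2.1 (SE 0.14) in 42D sgT33-5, 1.96 (0.13) in 42D NT3, 0.93 (0.22) in LNCaP sgT33-5 and 1.32 (0.20) in LNCaP NT3. The call in LNCaP sgT33-5 ended without the 2 libraries of low mitochondrial share (adjusted p = 0.0602, edgeR).

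In C2 HERC5 had 5.57, 4.37 and 3.78 CPM with R1881 and 4.37, 2.85 and 2.71 CPM with DMSO (log2 fold change 0.46, adjusted p = 0.293, edgeR). In F2 it had 5.95, 4.59 and 4.76 CPM with R1881 and 5.02, 3.63 and 3.34 CPM with DMSO (0.35, adjusted p = 0.348, edgeR). R1881 and DMSO values overlapped in both lines. The difference of the HERC5 response from that of NT3 was -0.86 (SE 0.29, adjusted p = 0.328, edgeR) in C2 and -0.97 (SE 0.29, adjusted p = 0.837) in F2, so neither passed this test. USP18, the protease that removes ISG15 from proteins and restrains IFNAR2 signalling, was higher with R1881 in 42D. It had 26.7, 29.6 and 27.8 CPM with R1881 and 15, 14.7 and 15.1 CPM with DMSO in 42D sgT33-5, and 24.7, 27.1 and 27.0 CPM with R1881 and 15.9, 17.8 and 15.4 CPM with DMSO in 42D NT3. The log2 fold changes of USP18 were 0.91 (SE 0.08, adjusted p = 4.17e-09, edgeR) and 0.71 (SE 0.08, adjusted p = 2.3e-07), and it was not called in the 4 LNCaP lines. ISG15 itself was not called with R1881 in any line, except in F2 with the replicate block, which pairs those libraries (log2 fold change -0.34, adjusted p = 0.0465, edgeR).

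The responses of 42D NT3 and LNCaP NT3 were compared by the interaction term. Of 43 members 2 differed (4.65%, against 3.85% of all genes): USP18 (difference 0.57, SE 0.13, adjusted p = 0.0045, edgeR) and HERC6 (0.46, SE 0.12, adjusted p = 0.0182), both higher in 42D. Without 42D NT3 with DMSO replicate 1, 42D NT3 with DMSO replicate 3 or 42D NT3 with R1881 replicate 1, USP18 alone was called (adjusted p of HERC6 up to 0.0741). For sgT33-5 and F2 in LNCaP and for sgT33-5 in 42D, no member's response differed from that of NT3. The shares of all genes called were 0%, 0% and 0.123%, and at an unadjusted p under 0.05 there were 5, 4 and 4 members; DESeq2 called 0 in all 3.

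Of the RNA-directed members, several were lower with R1881 in 42D. IFIT2 had 0.671, 0.818 and 0.462 CPM with R1881 and 1.41, 1.91 and 1.33 CPM with DMSO in sgT33-5, and 0.734, 0.894 and 0.674 CPM with R1881 and 1.67, 2.15 and 1.43 CPM with DMSO in NT3. R1881 libraries lay below all DMSO libraries, with log2 fold changes of -1.24 (SE 0.29, adjusted p = 0.0026, edgeR) and -1.15 (SE 0.28, adjusted p = 0.00327). IFIH1 was lower by -0.73 in sgT33-5 and -0.61 in NT3, IFIT1 by -0.72 and -0.74, OAS3 by -0.20 and -0.21, and outside this role MX1 by -0.52 and -0.46 and DTX3L by -0.27 and -0.30. In LNCaP sgT33-5, 2 of 11 RNA-directed members were also called lower, ADAR and IFIT2, against 5.7% of all genes. The ADAR call held in every alternative setting and that of IFIT2 did not. In each of C2, F2 and LNCaP NT3, 0 of 11 were called lower, against 2.06%, 3.98% and 5.15% of all genes. Counts this small do not tell the lines apart. In F2 EIF2AK2 was called higher, a call that ended without F2 with DMSO replicate 3. In the receptors, IFNGR1 was higher (0.46 and 0.43) and its partner chain IFNGR2 lower (-0.33 and -0.26) with R1881 in both 42D lines. IFNGR1 had 43.1, 38.2 and 41.7 CPM with R1881 and 32.8, 28.7 and 27.8 CPM with DMSO in sgT33-5, which did not overlap. IFNGR1 was also called in LNCaP NT3 (0.32) and F2 (0.26). Leaving out DMSO replicate 3 of NT3 ended the LNCaP NT3 call (adjusted p = 0.0543, edgeR), and leaving out any one of 5 libraries ended that in F2 (up to 0.21). The calls of IFIT1, OAS3 and MX1 in both 42D lines, and of IFNGR2 in 42D NT3, ended in at least 1 alternative setting (adjusted p up to 0.169).

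JAK1 was higher with R1881 in 42D NT3, at 10.5, 10.6 and 9.74 CPM with R1881 and 7.11, 8.2 and 7.3 CPM with DMSO (log2 fold change 0.47, SE 0.11, adjusted p = 0.00204, edgeR), without overlap and in every alternative setting. In 42D sgT33-5 JAK1 had 9.39, 8.49 and 7.72 CPM with R1881 and 8.70, 9.32 and 8.34 CPM with DMSO, which overlapped, and it was not called. In LNCaP sgT33-5 it was called (0.41, SE 0.13, adjusted p = 0.0301, edgeR), but the call ended without any of 5 single libraries (adjusted p up to 0.163).

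**Figure D5:**
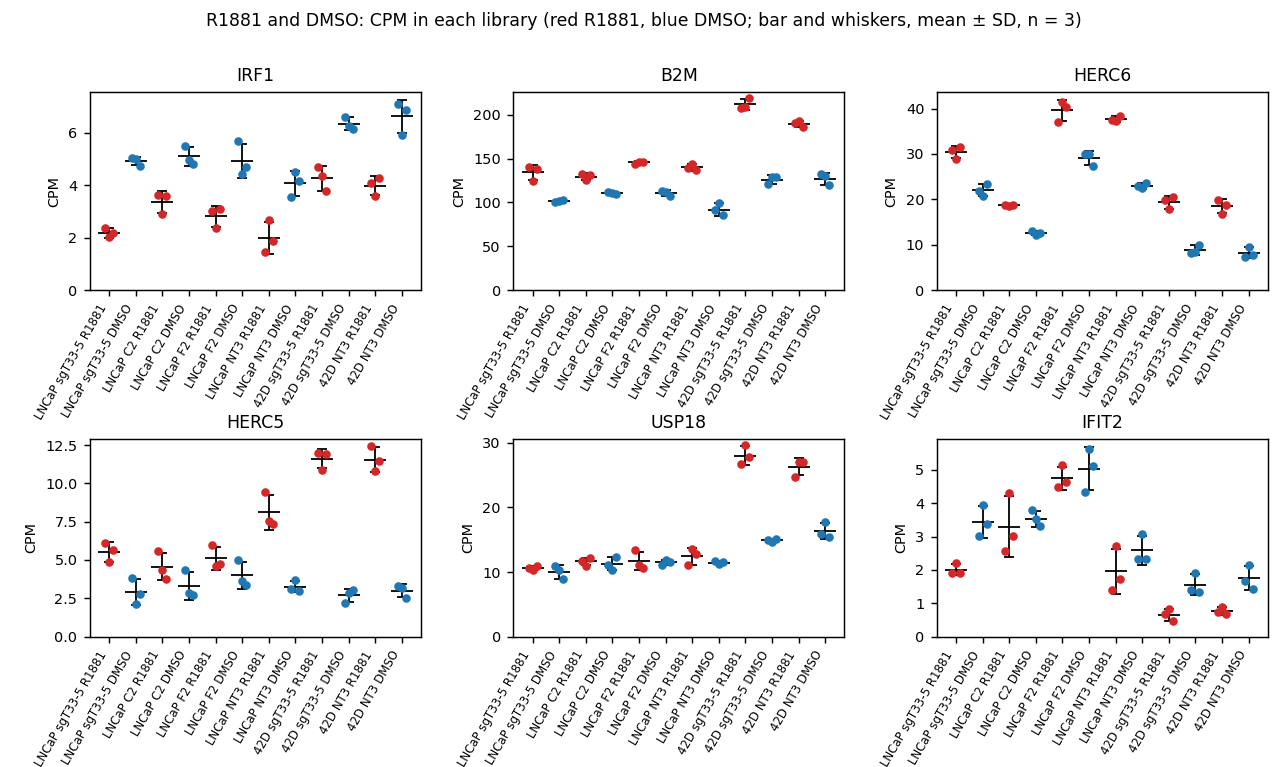
CPM of IRF1, B2M, HERC6, HERC5, USP18 and IFIT2 in all 12 groups, each point a library, R1881 left of DMSO in each line. IRF1 is lower and B2M and HERC6 are higher with R1881 in all 6 lines, and HERC5 reaches 10.8 to 12.4 CPM with R1881 in 42D against 2.20 to 3.29 CPM with DMSO.

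42D and LNCaP differed widely, in the members as in all genes. In NT3 cells with R1881, 17 of 43 members were higher and 15 lower in 42D (74.4%), against 34.7% of all genes higher and 34.2% lower (68.9%). With DMSO 16 were higher and 13 lower (67.4%), against 34.8% and 33.3% of all genes (68.1%). These shares are near the background, so what follows describes single members. Of the receptor chains and JAK1, 2 of 5 were called with R1881 and 1 of 5 with DMSO. With R1881 IFNGR2 (log2 fold change -0.47, SE 0.07, adjusted p = 5.61e-07, edgeR) and IFNAR1 (-0.17, SE 0.05, adjusted p = 0.00183) were lower in 42D. With DMSO IFNAR1 (log2 fold change 0.01), IFNAR2 (0.11), IFNGR1 (0.09) and JAK1 (0.08) were not called, and IFNGR2 was lower in 42D (-0.36, SE 0.07, adjusted p = 3.79e-05, edgeR).

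Of the transcription factors, STAT2 was lower in 42D, with 39.2, 41.8 and 45.8 CPM in 42D and 62.8, 70.8 and 63.6 CPM in LNCaP with R1881, and 39.7, 42.9 and 43.5 CPM in 42D and 66.7, 73.5 and 71.5 CPM in LNCaP with DMSO. NLRC5 was higher, with 10.9, 10.5 and 10.1 CPM in 42D and 1.59, 1.33 and 1.94 CPM in LNCaP with R1881, and 9.86, 10.7 and 8.67 CPM in 42D and 1.93, 1.72 and 3.43 CPM in LNCaP with DMSO. Neither gene's groups overlapped. The log2 fold changes of STAT2 were -0.64 and -0.75 (SE 0.08 each), and those of NLRC5 2.69 (SE 0.19) and 2.04 (SE 0.18), all called by edgeR. IRF1 (0.99 with R1881 and 0.71 with DMSO) and IRF7 (0.61 and 0.68), which drives type I interferon genes, were higher in 42D. IRF9 was called with R1881 alone (1.51), at under 2 CPM, and shares much of its exon sequence with another annotated gene on its strand.

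Some effectors were nearly silent in 42D. IFI35 had 7 counts over 3 libraries of 42D and 264 counts over 3 of LNCaP with R1881, and 9 and 290 counts with DMSO. With DMSO the level in LNCaP was 32.7-fold that in 42D, with a 95% counting interval of 17 to 72.2. ISG20, an exonuclease for single-stranded RNA, had 0.600, 0.953 and 0.858 CPM in 42D and 9.12, 9.51 and 10.0 CPM in LNCaP with R1881, and 1.08, 0.973 and 0.686 CPM in 42D and 8.07, 8.33 and 9.39 CPM in LNCaP with DMSO. The groups were far apart, with log2 fold changes of -3.55 and -3.22 (SE 0.18 each). OASL (3 counts in 42D and 21 in LNCaP with DMSO), BST2, the membrane tether of budding virus (4 and 22 counts, with overlap between single libraries), IFI44, SAMD9 and HERC6 were also lower in 42D in both treatments. The calls of SAMD9 and BST2 with DMSO, and of OASL and BST2 with R1881, ended in at least 1 alternative setting.

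PARP14 and PARP10, both mono-ADP-ribosyltransferases, were among the members far higher in 42D. PARP14 had 36.9, 37.7 and 41.7 CPM in 42D and 4.97, 7.25 and 6.21 CPM in LNCaP with R1881, and 38.4, 38.6 and 43.0 CPM in 42D and 4.79, 5.60 and 6.34 CPM in LNCaP with DMSO. PARP10 had 5.20, 5.84 and 5.27 CPM in 42D and 0.957, 0.665 and 0.735 CPM in LNCaP with R1881, and 6.22, 7.58 and 5.86 CPM in 42D and 1.40, 1.80 and 0.906 CPM in LNCaP with DMSO. Both were without overlap. The log2 fold changes were 2.66 and 2.85 (SE 0.11 each) for PARP14, and 2.78 (SE 0.26) and 2.26 (SE 0.23) for PARP10. EIF2AK2, the kinase PKR that halts translation on double-stranded RNA, was higher in 42D by 0.73 with R1881 and 0.87 with DMSO, and IFIT5 by 0.89 and 0.96. In antigen presentation, B2M (0.44 and 0.47), HLA-B (0.41 and 0.45) and HLA-C (0.22 and 0.24) were higher, and TAP1 (-0.51 and -0.49) was lower in 42D.

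A wider list of 155 other genes of these pathways was counted in the same fits, 87 of them tested in LNCaP. It too was chosen with earlier results of these data known, so it gives no independent support for the members. In F2 17 were higher (19.5%, against 6.19% of all genes) and 8 lower (9.2%, against 7.26%) than in NT3 with R1881. With DMSO 22 were higher (25.3%, against 8.94%) and 8 lower (9.2%, against 7.73%). Within it, 7 of 22 antigen presentation genes were higher (31.8%) and 4 lower (18.2%) in F2 with R1881, and 10 were higher (45.5%) and 4 lower with DMSO. The guanylate-binding protein gene GBP2 rose by 1.70 with R1881 and 2.40 with DMSO on the log2 scale, and ERAP2, a peptide-trimming aminopeptidase of the ER, by 1.36 and 0.93. HLA-DMB, which helps load MHC class II, was lower (-1.32 and -1.28). In C2 8 were higher (9.2%, against 9.67% of all genes) and 20 lower (23%, against 13.3%) with R1881. With DMSO 8 were higher (9.2%, against 8.53%) and 11 lower (12.6%, against 9.63%), near the background. In LNCaP sgT33-5 0 were called with R1881 and 1 with DMSO, and in 42D sgT33-5, with 85 tested, the counts were also 0 and 1. With R1881 against DMSO, SOCS2, a feedback inhibitor of cytokine receptors, was higher in 42D NT3 (3.14) and LNCaP NT3 (1.09), and TMEM140 lower (-2.64 and -1.5).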

How the data were processed

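Per the submitters' processing notes, reads were trimmed with cutadapt and aligned to GRCh38 (hg38) with HISAT2 2.1.0; the counting tool, its annotation and its use of strand are not given in the sources used here. The authors deposited raw gene counts, 61806 rows for 36 libraries, of which 1 row names no gene and holds 0 counts. Libraries were grouped by their labels.

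The test was that of edgeR 4.0.16, under R 4.3.3, on the deposited counts (TMM, filter by group, robust quasi-likelihood, 2-sided, Benjamini-Hochberg over all genes tested, threshold 0.05): 24 LNCaP libraries in 1 fit (15519 genes), 12 of 42D (15403) and all 36 (16564). The SE is the size of the log2 fold change over the root of F. CPM use the TMM totals of all 36 libraries; lengths are exon unions of GENCODE 29, which may not be the authors' annotation. Tables were made with Python 3.11.15 and pandas 2.3.3. The fit was tested on simulated data. Members, role lists and the wider list were chosen with earlier results of these data known. All members may be named, and of the wider list the 2 called genes of largest change per direction; some genes are not reported here.

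Replicate numbers were taken as pairs where every same-numbered pair had deviations correlated above 0.1, in 7 of 20 comparisons within a cell line. Alternatives were DESeq2 1.42.0, RLE scaling, no filter, only the libraries compared, the replicate block, each library left out, and the 2 libraries of low mitochondrial share left out. Intervals cover counting error only.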

Additional observations from a re-analysis of the deposited data

Results flagged for a closer look

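The response to R1881 of 3 members differed between lines by an interaction term. For B2M, the log2 fold change with R1881 was 0.22 in LNCaP C2 and 0.60 in LNCaP NT3, a difference of -0.38 (SE 0.07, adjusted p = 0.00664, edgeR). For HERC6 it was 1.20 in 42D NT3 and 0.70 in LNCaP NT3, and in the fit of both cell lines the difference was 0.46 (SE 0.12, adjusted p = 0.0182). For USP18 it was 0.71 in 42D NT3 and 0.11 in LNCaP NT3, where it was not called, and the difference was 0.57 (SE 0.13, adjusted p = 0.0045).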

How the results depend on the processing

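Over 25 comparisons the test made 192 calls of members. Of these 125 held in every setting tried, 67 ended in at least 1, and 0 changed direction. The replicate block ended no call and added calls. Shares of all genes called with the block are not given here, so its counts of members have no background beside them. With the block, C2 against F2 with DMSO gave 17 members in place of 8. The guide effect of 42D sgT33-5 with R1881 gave 1 in place of 0. Both were paired by number. Not paired were the guide effect of LNCaP sgT33-5 with DMSO, with 2 in place of 1, and the differences in response from NT3. The latter gave 2 in place of 1 for C2 and 1 in place of 0 for F2. Each added HERC5 (-0.86, adjusted p = 0.0189, and -0.98, 0.037, edgeR), which was not called without the block. Pairing was not assessed across cell lines. The difference in guide effect between 42D and LNCaP gave 5 with R1881 and 1 with DMSO in place of 0. In paired comparisons the block also gave 21 in place of 18 for F2 with DMSO and 3 in place of 2 for sgT33-5 with R1881. For the R1881 response, paired as well in these lines, it gave 21 in place of 14 in 42D sgT33-5. It gave 16 in place of 15 in 42D NT3 and 6 in place of 5 in F2. With only the libraries compared, the guide effect with R1881 gave 0 in place of 2 members for sgT33-5 and 9 in place of 14 for C2. For C2 the calls that ended were those of IFIT5 and IFIT2 (adjusted p up to 0.0918, edgeR). That fit has its own count filter, and members with few counts that do not pass it are not tested. When both libraries of low mitochondrial share were left out, the guide effect of sgT33-5 with R1881 gave 1, and the difference in guide effect with R1881 1, as did DESeq2. The causes were not tested. With 1 library left out, counts ranged over 11 to 17 for F2 and 9 to 13 for C2 with R1881, 12 to 16 for F2 and 3 to 5 for C2 with DMSO, 1 to 2 for sgT33-5 with R1881, 0 to 1 for the difference in guide effect with R1881, 3 to 5 for the R1881 response of F2, and 1 to 2 for the difference in response between 42D and LNCaP. Members with few counts, such as IFIT3, OASL, OAS1, BST2 and SAMD9 in 42D, are limited by depth, and the 7 members left out of the LNCaP fit could not be tested at this depth.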
